A study of Mus musculus with 9 samples.

Results

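The nuclear genes that encode the mitochondrial oxidative phosphorylation (OXPHOS) machinery were examined in 3 sorted populations of mouse peritoneal macrophages. Protein-coding genes were chosen by symbol, as subunits of complexes I to V and their close relatives, and selected on measured read counts: at least 10 reads in at least 3 of the 9 libraries. The rule took 84 genes of the 47729 gene identifiers counted. Of 88 protein-coding genes with a matching symbol, 4 fell below the read minimum: Cox4i2, Cox7b2, Cox8b and Cox8c. Just inside the minimum were Ndufa4l2 with 71 reads and Cox6b2 with 76 reads over all libraries, and just outside was Cox4i2 with 43. Cox7a1 had 294 reads and Cox6a2 513, and the remaining 80 genes had at least 1000 each. The 84 comprise 36 complex I subunits, 4 of complex II, 8 of complex III, 11 of complex IV, 16 of complex V, 3 complex III assembly factors, 5 tissue-restricted or regulated relatives, and Atp5s.

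Oxidative phosphorylation takes electrons from NADH at complex I and from succinate at complex II and passes them through ubiquinone, complex III and cytochrome c to oxygen at complex IV. The proton gradient built on the way drives ATP synthesis at complex V. Most subunits are encoded in the nucleus and imported, and a core set of complexes I, III, IV and V is encoded by mitochondrial DNA (mtDNA). In macrophages, alternative activation by IL-4 is known for its reliance on oxidative metabolism, and inflammatory activation for a shift to glycolysis.

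All mice carried Cx3cr1CreERT2-IRES-EYFP/+ and Rosa26-stopfl-tdTomato/+, a tamoxifen-inducible Cre and reporter under the Cx3cr1 gene with a Cre-dependent red reporter. All received IL-4 (5 µg) bound to an antibody against it (25 µg) by intraperitoneal injection, starting 4 days before harvest, and every group was therefore exposed to IL-4. Monocyte-derived macrophages were taken on day 4 after 2 ml thioglycollate, an irritant that recruits blood monocytes. Tissue converted macrophages were taken from mice given 2 ml thioglycollate and held on tamoxifen diet over 10 weeks, and tissue resident macrophages from mice with no further treatment in the labels. Each group has 3 libraries, and the sources used here give neither age nor sex. The labels do not say whether each library is a mouse of its own, so a p-value reflects only how these libraries vary, and that variation may be technical. Recent thioglycollate, the tamoxifen diet and the population cannot be told apart.

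The libraries held 15220884 to 20496258 reads in genes, of which the 84 genes took 1.387% to 1.583%. The macrophage gene Csf1r stood between 1053 and 1159 CPM (counts per 1000000 reads of TMM-scaled library size) in all libraries, and Adgre1 (F4/80) at 223.6 to 421.2 in monocyte-derived and 2672 to 3417 in other libraries. The resident macrophage factor Gata6 was at 0.587 to 2.08 CPM in monocyte-derived, 132.4 to 176.7 in the converted and 158.7 to 162.6 in resident libraries, while the monocyte receptor Ccr2 was at 463.5 to 1345 CPM in monocyte-derived and at most 11.7 in other libraries. Of 8 macrophage markers, 6 had a positive and 2 a negative log2 change against monocyte-derived libraries in both other groups (down to -1.67 in converted and -2.07 in resident). Of 4 monocyte markers, 3 changed negatively and 1 positively (log2 0.55) in converted libraries, and all 4 negatively in resident ones. Summed monocyte markers ranged over 4759 to 5385 CPM in monocyte-derived, 5153 to 6532 in the converted and 3377 to 4338 in resident libraries. Most of that sum was Fn1, at 61060 to 130952 reads per library. Ccr2, F13a1 and Ly6c2 had at most 25213, 2263 and 1156. Summed B-cell markers (7 genes) ranged over 12.4 to 31.9 CPM in monocyte-derived, 38.3 to 93.0 in the converted and 587.7 to 779.6 in resident libraries. Summed neutrophil markers (6 genes) stood at 52.9 to 88.7, 9.77 to 19.3 and 16.5 to 17.2, and Mpo was at 0 in 5 of 9 libraries. Csf3r had 169 to 1449 reads per library, and each other neutrophil marker at most 376. Summed NK-cell markers (5 genes) ranged over 16.1 to 92.5, 1.59 to 2.42 and 14.8 to 23.9 CPM in the same order of groups. Gzma had 26 to 1146 reads per library, and each other NK-cell marker at most 84. Summed T-cell markers (7 genes) ranged over 1.79 to 8.29, 1.29 to 4.52 and 14.2 to 24.3 CPM. The part of these cells in the results was not tested. Xist, which is transcribed from the inactive X chromosome, was at 41.0 to 101.1 CPM in monocyte-derived libraries and at most 0.0979 elsewhere, so a difference in sex and the population cannot be told apart.

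The upstream stretches of 6 genes are shown because they belong to genes that moved together or apart below. Each holds the 200 bases before the annotated start (RefSeq, GRCm38.p6), read on the gene's strand, with matches to the searched motifs in capitals. Ndufa8, Sdhd, Cox6a1 and Cox6b1 rose against monocyte-derived libraries in both other groups, Sdhb fell in the converted group, and Ndufa4 fell in both groups.
Ndufa8, an accessory subunit of complex I, chr2:36049339-36049538, minus strand: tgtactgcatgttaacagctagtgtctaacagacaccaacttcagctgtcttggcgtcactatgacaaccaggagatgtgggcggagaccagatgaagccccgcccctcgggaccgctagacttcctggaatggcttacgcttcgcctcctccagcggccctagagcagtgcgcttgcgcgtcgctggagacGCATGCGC
Sdhd, a membrane anchor of complex II, chr9:50603850-50604049, minus strand: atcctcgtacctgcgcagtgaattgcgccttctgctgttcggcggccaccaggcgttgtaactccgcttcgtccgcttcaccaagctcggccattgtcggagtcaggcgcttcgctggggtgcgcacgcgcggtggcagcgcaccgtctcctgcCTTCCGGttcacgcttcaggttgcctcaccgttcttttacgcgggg
Sdhb, the iron-sulfur subunit of complex II, chr4:140961071-140961270, plus strand: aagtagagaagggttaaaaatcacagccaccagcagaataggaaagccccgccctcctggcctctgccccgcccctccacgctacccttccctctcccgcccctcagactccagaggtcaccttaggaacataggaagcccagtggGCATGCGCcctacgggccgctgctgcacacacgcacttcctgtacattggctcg
Cox6a1, the widely expressed complex IV subunit 6A, chr5:115348959-115349158, minus strand: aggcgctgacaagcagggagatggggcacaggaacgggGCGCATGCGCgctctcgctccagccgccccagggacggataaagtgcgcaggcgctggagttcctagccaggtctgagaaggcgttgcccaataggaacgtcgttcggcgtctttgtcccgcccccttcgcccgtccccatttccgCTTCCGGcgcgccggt
Cox6b1, complex IV subunit 6B, chr7:30626115-30626314, minus strand: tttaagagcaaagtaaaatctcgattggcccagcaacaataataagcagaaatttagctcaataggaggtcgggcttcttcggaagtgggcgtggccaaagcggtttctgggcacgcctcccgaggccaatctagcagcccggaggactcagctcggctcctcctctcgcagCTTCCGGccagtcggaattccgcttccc
Ndufa4, a complex IV subunit first assigned to complex I, chr6:11907451-11907650, minus strand: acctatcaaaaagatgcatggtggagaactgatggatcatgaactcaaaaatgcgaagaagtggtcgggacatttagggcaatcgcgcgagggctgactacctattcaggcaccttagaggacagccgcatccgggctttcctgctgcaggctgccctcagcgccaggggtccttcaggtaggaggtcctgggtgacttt

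The motifs were searched as exact letters on both strands of 300-base windows, from 250 bases before to 50 after the start, for the 70 members found in the promoter table. The NRF1 core GCATGCGC lay in 14.3% of the members and in 3.05% of all 27025 genes of the table. The ETS core CCGGAAG, read by factors such as GABPA, lay in 22.9% against 9.93%, the YY1 core AAGATGGC in 15.7% against 3.19%, and the ERR core CAAGGTCA in 7.14% against 1.76%. At least 1 of the 4 was present in 48.6% of members and 16.4% of all genes. Median GC content was 57.8% and 52.7%. None of the motifs contains another. In Ndufa8 the NRF1 core ends right before the start, and in Cox6a1 it reads on both strands at once. Sdhb, which fell, carries the same NRF1 core as Ndufa8 and Cox6a1, which rose, and the printed stretch of Ndufa4 holds none of the 4 letter strings. Of the 13 members in the promoter table that were higher in both comparisons, 3 held the NRF1, 4 the ETS, 2 the YY1 and 1 the ERR core. Ndufa5, Ndufa10, Ndufb5, Ndufb10, Ndufv2 and Atp5o, which also rose in both, held none. Of the 3 that were lower in either comparison, 1 held the NRF1 and 2 the ETS core. A match is a description of letters, not of a bound site.

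Against monocyte-derived libraries, the majority of nuclear OXPHOS genes passed in neither comparison, and more of those that passed were higher than lower. Converted libraries had 19 members higher and 6 lower of 83 tested (edgeR quasi-likelihood test, Benjamini-Hochberg adjusted p under 0.05). Over all 13223 genes tested, 50.7% were called in that comparison, 25.8% higher and 24.9% lower, so the members' share called higher (22.9%) was near that of all genes and their share called lower (7.23%) was smaller. Resident libraries had 30 higher and 4 lower, or 36.1% and 4.82% of the members, beside 50.7% of all genes called, 25.7% higher and 24.9% lower. Both counts of lower calls include Ndufa4l2. It passed the read minimum only through the monocyte-derived group, so its call was fixed by the choice. Among the 80 members with at least 1000 reads, 4 (5%) were lower in converted and 2 (2.5%) in resident libraries, with 19 and 30 higher. The median log2 change of the members was 0.14 in the converted and 0.24 in resident libraries, beside -0.01 and 0.00 over all genes. In this fit, where the 3 groups share an estimate of the spread, converted and resident libraries differed at 1 member, which was lower in the converted group, and at no member in the other direction. There 13 of 83 members had an unadjusted p under 0.05, beside 2749 of 13223 genes. Of all genes 6.07% were called, 1.82% higher and 4.26% lower. DESeq2 called 2 members lower, beside 6.33% of all genes. A fit of the converted and resident libraries alone called more members lower, as given below. Over the 3 groups together 30 of 83 members (36.1%) were called, beside 54.7% of all genes. Both comparisons with monocyte-derived libraries share those 3 libraries.

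The changes were small in size. Among the 80 members with at least 1000 reads, log2 changes ranged from -0.89 to 0.72 in converted and from -0.84 to 0.62 in resident libraries, and none reached 2-fold. Order of the group means, leaving out Ndufa4l2, was resident over converted over monocyte-derived for 44 of 83 members. It was converted over resident over monocyte-derived for 15, and the monocyte-derived mean was the highest for 8. Without monocyte-derived library 2, whose OXPHOS levels lay above those of the other 2, the members called higher numbered 38 in the converted and 51 in the resident libraries, with 24.8% and 25.5% of all genes called higher. Scaled by library totals alone, converted libraries had 14 members higher and 9 lower of 83 tested. In that fit 23.1% of all genes were called higher and 26.6% lower.

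**Figure D1:**
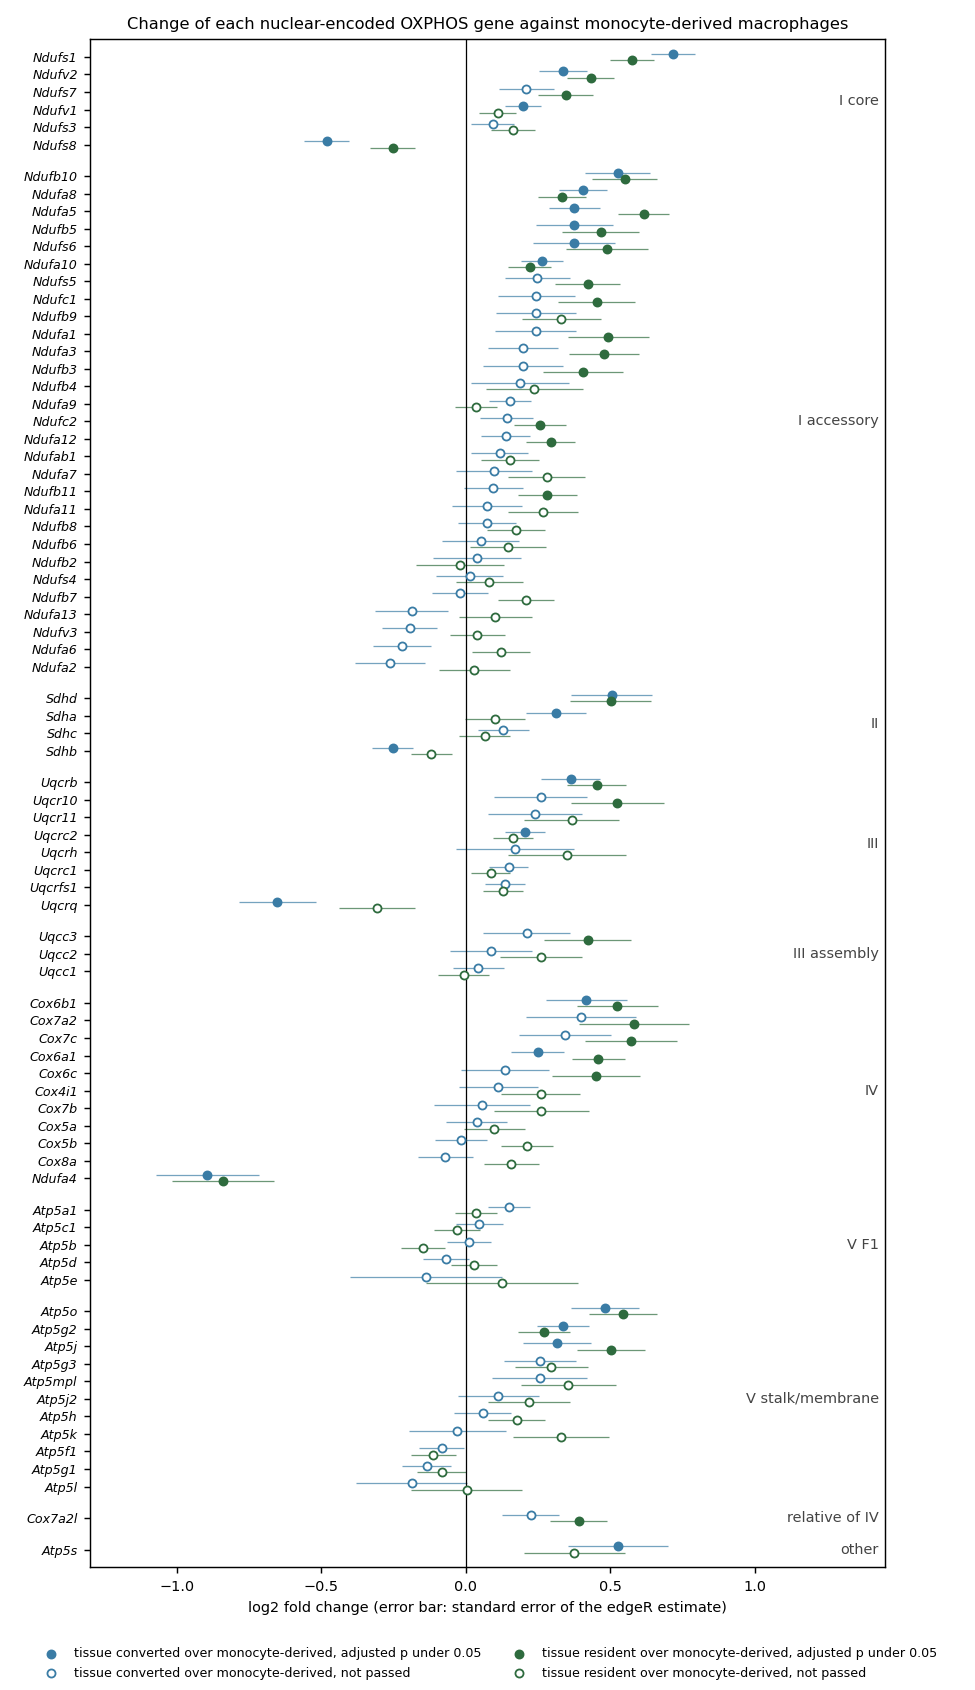
Log2 fold change (x axis) of 79 of the 80 members with at least 1000 reads (y axis, grouped by complex) in converted and resident over monocyte-derived libraries, with the standard error as bars and filled points for an adjusted p under 0.05. Most points lie right of 0 and within 0.72, while Ndufa4, Uqcrq, Ndufs8 and Sdhb lie to the left among their complexes.

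Among the 7 nuclear core subunits of complex I, which carry the NADH site and the iron-sulfur chain, 3 rose and 1 fell in each comparison. These are 42.9% and 14.3%, beside 25.8% and 24.9% of all genes called higher and lower in converted and 25.7% and 24.9% in resident libraries. Ndufs1, the large iron-sulfur subunit, showed the largest rise of any member in converted libraries. It stood at 102.6, 112.2 and 105.2 CPM in monocyte-derived libraries 1 to 3, at 177.9, 182.3 and 166.2 in converted and at 150.3, 166.8 and 160.0 in resident ones. Every converted and resident library lay above every monocyte-derived one, and converted and resident libraries overlapped. The change was 1.65-fold in converted (log2 0.72, SE 0.08, adjusted p = 3.7e-05) and 1.49-fold in resident libraries (log2 0.58, SE 0.08, adjusted p = 0.000155). Ndufs8, another iron-sulfur subunit, went the opposite way: 129.2, 132.2 and 125.5 CPM in monocyte-derived, 97.0, 93.2 and 86.8 in the converted, and 116.1, 101.3 and 107.3 in resident libraries. The 3 groups did not overlap, with converted lowest. It fell 1.40-fold in converted (log2 -0.48, SE 0.08, adjusted p = 0.00062) and 1.19-fold in resident libraries (log2 -0.25, SE 0.08, adjusted p = 0.0215). The resident call was lost without monocyte-derived library 2 or resident library 2 or 3 (adjusted p of up to 0.0976).

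The ratio of Ndufs1 to Ndufs8, both taken from the same library, was 0.827 ± 0.029 (SD, n = 3) in monocyte-derived, 1.90 ± 0.06 in the converted and 1.48 ± 0.18 in resident libraries. Ndufv2, which holds an iron-sulfur centre beside the flavin, rose in both comparisons, with log2 0.34 (adjusted p = 0.00647) and 0.43 (adjusted p = 0.00161). Ndufv1, which binds NADH and flavin, was at 158.8 to 164.8 CPM in monocyte-derived, 182.4 to 190.2 in the converted and 172.2 to 177.4 in resident libraries. It rose in converted libraries (log2 0.20, SE 0.06, adjusted p = 0.0238) but did not pass in resident ones (log2 0.11, adjusted p = 0.171). The converted call was lost on leaving out monocyte-derived library 3 or either of converted libraries 2 and 3 (adjusted p of up to 0.0673). It was also lost with library totals (adjusted p = 0.156), no filter (0.0753), a replicate block (0.0543) or only the 2 groups compared (0.0623). Ndufs7 rose in the resident group (log2 0.35, adjusted p = 0.0125), and Ndufs3 passed in neither (log2 0.09, adjusted p = 0.328, and 0.16, adjusted p = 0.0962).

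The 29 accessory subunits of complex I, which surround and stabilise the core, had 6 called higher and 0 lower in converted libraries: Ndufb10, Ndufa8, Ndufa5, Ndufb5, Ndufs6 and Ndufa10. That is 20.7%, beside 25.8% of all genes called higher, and 5 of the 29 had a negative log2 change. In resident libraries the same 6 rose, and with them Ndufa1, Ndufa3, Ndufa12, Ndufb3, Ndufb11, Ndufc1, Ndufc2 and Ndufs5 (14 of 29, or 48.3%, beside 25.7% of all genes). Ndufa5 stood at 35.15, 41.7 and 37.3 CPM in monocyte-derived, 50.9, 47.3 and 49.96 in the converted, and 60.3, 56.3 and 58.3 in resident libraries. The 3 groups did not overlap, and the resident rise of 1.53-fold was the largest of any member there (log2 0.62, SE 0.09, adjusted p = 0.000264). Its rise in converted libraries was 1.30-fold (log2 0.38, SE 0.09, adjusted p = 0.00509).

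Ndufb10, a subunit of the membrane arm, was at 70.7, 95.6 and 92.8 CPM in monocyte-derived, 132.6, 114.9 and 125.3 in the converted and 129.5, 127.1 and 122.6 in resident libraries. Monocyte-derived library 1 was lowest, and all 6 other libraries lay above the 3 of that group. The rise was 1.44-fold in converted (log2 0.53, SE 0.11, adjusted p = 0.00334) and 1.46-fold in resident libraries (log2 0.55, SE 0.11, adjusted p = 0.00264). Ndufa8, the first upstream stretch shown above, rose 1.325-fold (adjusted p = 0.00239) and 1.26-fold (adjusted p = 0.00734). The 15 accessory subunits that passed in neither comparison ranged from log2 -0.26 (Ndufa2) to 0.24 (Ndufb9) in converted libraries. Ndufa1 and Ndufb11 lie on the X chromosome. Leaving out any 1 of 7 libraries ended the converted call of Ndufb5, with an adjusted p of up to 0.125 without converted library 1, and leaving out any library other than monocyte-derived library 2 ended that of Ndufs6 (up to 0.138). In resident libraries the call of Ndufs6 was lost without monocyte-derived library 3 (adjusted p = 0.0512), of Ndufa12 without resident library 1 (0.0628) and of Ndufc1 without either of these (up to 0.0538). Those of Ndufb3 and Ndufc2 were lost without monocyte-derived library 1 or 3 or any resident library, and Ndufc2 also without converted library 3 (adjusted p of up to 0.104 and 0.133). That of Ndufa10 was lost without monocyte-derived library 1 or any resident library (up to 0.107), and that of Ndufb11 without any 1 of 7 libraries, all but monocyte-derived library 2 and converted library 1 (up to 0.106).

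Complex II has 4 subunits, all nuclear, and they diverged in converted libraries. Sdha, the flavoprotein that oxidises succinate, was at 404.5, 523.9 and 531.1 CPM in monocyte-derived, 613.4, 609.4 and 589.8 in the converted and 502.4, 534.8 and 528.4 in resident libraries. Converted libraries stood above all others, while the other groups overlapped. The rise was 1.24-fold (log2 0.31, SE 0.10, adjusted p = 0.0300) in converted libraries, and the resident change was log2 0.10 (SE 0.10, adjusted p = 0.447). Sdhb, the iron-sulfur subunit that takes the electrons from Sdha, was at 309.9, 303.2 and 290.3 in monocyte-derived, 266.3, 250.7 and 241.1 in the converted and 282.5, 279.1 and 269.9 in resident libraries. It fell 1.19-fold in converted libraries (log2 -0.25, SE 0.07, adjusted p = 0.0127), with no overlap between any pair of groups. Its resident change did not pass (log2 -0.12, adjusted p = 0.183).

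Sdhd, a membrane anchor, rose in both comparisons: 199.1, 304.3 and 287.0 CPM in monocyte-derived, 392.2, 351.6 and 377.3 in the converted, and 383.1, 380.8 and 354.6 in resident libraries. Monocyte-derived library 1 was far below the other 2 of its group, and no library of the other groups reached down to them. The changes were 1.42-fold in converted (log2 0.50, SE 0.14, adjusted p = 0.0126) and 1.42-fold in resident libraries (log2 0.50, SE 0.14, adjusted p = 0.0130). Sdhc, the other anchor, passed in neither (log2 0.13 and 0.06). Per library, Sdha over Sdhb was 1.31, 1.73 and 1.83 in monocyte-derived, 2.30, 2.43 and 2.45 in the converted, and 1.78, 1.92 and 1.96 in resident libraries. The converted ratios lay above all others. The Sdha call was lost on leaving out any 1 converted library (adjusted p of 0.0534 to 0.0726), and the Sdhb call without converted library 3 (adjusted p = 0.0582). With only the 2 groups compared, both calls were also lost (adjusted p = 0.0685 and 0.0566), as was that of Sdhb with no filter (0.0929).

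Of 8 complex III subunits, 2 rose and 1 fell in converted libraries, and 2 rose in resident ones (25.0% higher in each, near the share of all genes). Uqcrq, a small subunit of the ubiquinone-binding part, was at 163.2, 213.2 and 149.1 CPM in monocyte-derived, 107.3, 105.4 and 121.5 in the converted, and 155.9, 135.4 and 133.2 in resident libraries. Converted libraries were below all others, and resident and monocyte-derived libraries overlapped. It fell 1.57-fold in converted libraries (log2 -0.65, SE 0.13, adjusted p = 0.00232). Uqcrb, another ubiquinone-binding subunit, rose in both (log2 0.36, adjusted p = 0.0138, and 0.45, adjusted p = 0.00436). Uqcrc2, a core subunit, rose in converted libraries (log2 0.20, adjusted p = 0.0321) and Uqcr10 in resident ones (log2 0.52, adjusted p = 0.0209). Uqcrc1, the partner core subunit, stood at 630.7 to 645.7 CPM in monocyte-derived, 695.2 to 721.2 in the converted and 663.5 to 692.5 in resident libraries. Neither change passed (log2 0.15, adjusted p = 0.0898, and 0.09, adjusted p = 0.312), although the groups did not overlap. The converted call of Uqcrc2 was lost without monocyte-derived library 2 or 1 of converted libraries 1 and 2, and with library totals (adjusted p of up to 0.164), that of Uqcrb without converted library 1 (0.050), and the resident call of Uqcr10 without monocyte-derived library 3 or resident library 1 or 3 (up to 0.062). Of the 3 assembly factors Uqcc1, Uqcc2 and Uqcc3, which help to build the complex, only Uqcc3 rose, in resident libraries (log2 0.42, adjusted p = 0.0388), a call lost without monocyte-derived library 1 or 3 or any resident library (up to 0.111).

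Among 11 widely expressed complex IV genes, 2 rose and 1 fell in converted libraries, and 5 rose and 1 fell in resident ones. Cox6a1 and Cox6b1 rose in both, and Cox6c, Cox7a2 and Cox7c in the resident group. The share called higher was 18.2% in converted and 45.5% in resident libraries, beside 25.8% and 25.7% of all genes. The share called lower was 9.09% in each, beside 24.9% of all genes. The converted call of Cox6a1 was lost without any library other than monocyte-derived library 2 (adjusted p of up to 0.13), and the resident call of Cox6c without monocyte-derived library 1 or 3 or any resident library (up to 0.098). Cox7a2, the widely expressed form of subunit 7A, was at 80.3, 153.4 and 100.9 CPM in monocyte-derived, 153.7, 140.6 and 146.9 in the converted and 171.0, 166.1 and 164.1 in resident libraries. Monocyte-derived library 2 reached the converted level, and resident libraries lay above all others. The resident rise was 1.498-fold (log2 0.58, SE 0.19, adjusted p = 0.0277). Cox6b1, on the side of the complex that faces cytochrome c, was at 181.7, 282.8 and 222.7, at 334.2, 280.8 and 302.2, and at 332.5, 323.7 and 332.3 CPM in the 3 groups in the same order. Library 2 again stood highest of its group, above converted library 2. The rises were 1.335-fold (log2 0.42, SE 0.14, adjusted p = 0.0314) and 1.44-fold (log2 0.52, SE 0.14, adjusted p = 0.0109).

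Cox7c was at 60.2, 102.3 and 73.2 CPM in monocyte-derived and 112.2 to 120.8 in resident libraries, a rise of 1.49-fold (log2 0.57, SE 0.16, adjusted p = 0.0130). In converted libraries it was at 95.0 to 103.8 and did not pass (log2 0.34, adjusted p = 0.0992). Cox4i1, the main subunit 4, spread from 276.6 to 429.6 CPM among monocyte-derived libraries, around 358.7 to 402.2 in the converted and 405.0 to 437.2 in resident ones, and passed in neither comparison (adjusted p = 0.521 and 0.144). Cox5a likewise did not pass (log2 0.04 and 0.10). The resident call of Cox7a2 was lost without monocyte-derived library 3 or any 1 resident library (adjusted p of 0.0599 to 0.0866), and the converted call of Cox6b1 on leaving out monocyte-derived library 1 or 3, or 1 or 3 of the converted ones (adjusted p of 0.0522 to 0.102).

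Ndufa4 fell most among the members with at least 1000 reads. It stood at 53.2, 93.2 and 64.1 CPM in monocyte-derived, 41.4, 35.1 and 36.7 in the converted, and 38.8, 40.9 and 37.8 in resident libraries. Every monocyte-derived library was above every other, and converted and resident libraries overlapped. The fall was 1.86-fold in converted (log2 -0.89, SE 0.18, adjusted p = 0.002) and 1.79-fold in resident libraries (log2 -0.84, SE 0.18, adjusted p = 0.00293). Cox4i1 over Ndufa4 was 5.06 ± 0.40 (SD, n = 3) in monocyte-derived, 10.1 ± 0.3 in the converted and 10.7 ± 0.7 in resident libraries. Within the monocyte-derived group the 2 genes rose and fell together across libraries.

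The relatives of complex IV subunits with restricted or regulated expression were rare transcripts here. Ndufa4l2, a paralog of Ndufa4 known as a target of hypoxia-inducible factor, had 22, 33 and 16 reads in monocyte-derived libraries and 0 in all 6 others. With a floor of 3 reads over a group, it was at least 26.1-fold lower in converted and at least 26.5-fold lower in resident libraries. It passed the read minimum only through the group where it is high, so this difference was fixed by the choice. Cox6a2, the form of subunit 6A known from striated muscle, had 169, 197 and 84 reads in monocyte-derived, 3, 7 and 4 in the converted, and 15, 16 and 18 in the resident libraries. In CPM these were 5.44 to 11.4, 0.150 to 0.368 and 0.825 to 0.881, without overlap between any groups. It fell by 5.09 on the log2 scale in converted libraries (SE 0.39, adjusted p = 4.6e-06) and by 3.33 in resident ones (SE 0.33, adjusted p = 2.7e-05).

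Cox6a2 was also the 1 member called between converted and resident libraries (log2 -1.76, SE 0.45, adjusted p = 0.0489). That call was lost without any 1 of the converted or resident libraries (adjusted p of 0.0606 to 0.164), and the converted reads number 14 in all. The 5 striated muscle markers summed to at most 0.636 CPM, and Mb and Myh4 were at 0 in all 9 libraries. A pair of genes typical of dendritic cells, looked up after the values were seen, also stood highest in monocyte-derived libraries: Siglech at 0.809 to 3.69 CPM and Flt3 at 2.89 to 11.2, against at most 0.245 and 0.685 elsewhere. Both were lowest in monocyte-derived library 2 of that group, where Cox6a2 was highest. Their part in the Cox6a2 result was not tested.

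Cox7a2l, a relative of subunit 7A that helps to join complexes III and IV into supercomplexes, was at 49.7 to 58.7 CPM in monocyte-derived, 58.3 to 68.6 in the converted and 67.5 to 76.1 in resident libraries. It rose in resident libraries (log2 0.39, SE 0.10, adjusted p = 0.00799) and did not pass in converted ones (log2 0.22, adjusted p = 0.0842). Cox7a1, the heart and muscle form of 7A, had 17 to 45 reads per library in every group and did not pass (adjusted p = 0.603 and 0.678). Cox6b2, known from testis, had 24, 7 and 15 reads in monocyte-derived, 1, 5 and 3 in the converted and 4, 10 and 7 in the resident libraries, and was too rare to be tested. Cox4i2, the hypoxia-regulated form of subunit 4 in lung, had 0 reads in each monocyte-derived library, 5 to 14 in the converted and 4 to 9 in the resident ones. No read of Cox7b2, Cox8b or Cox8c was counted.

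**Figure D2:**
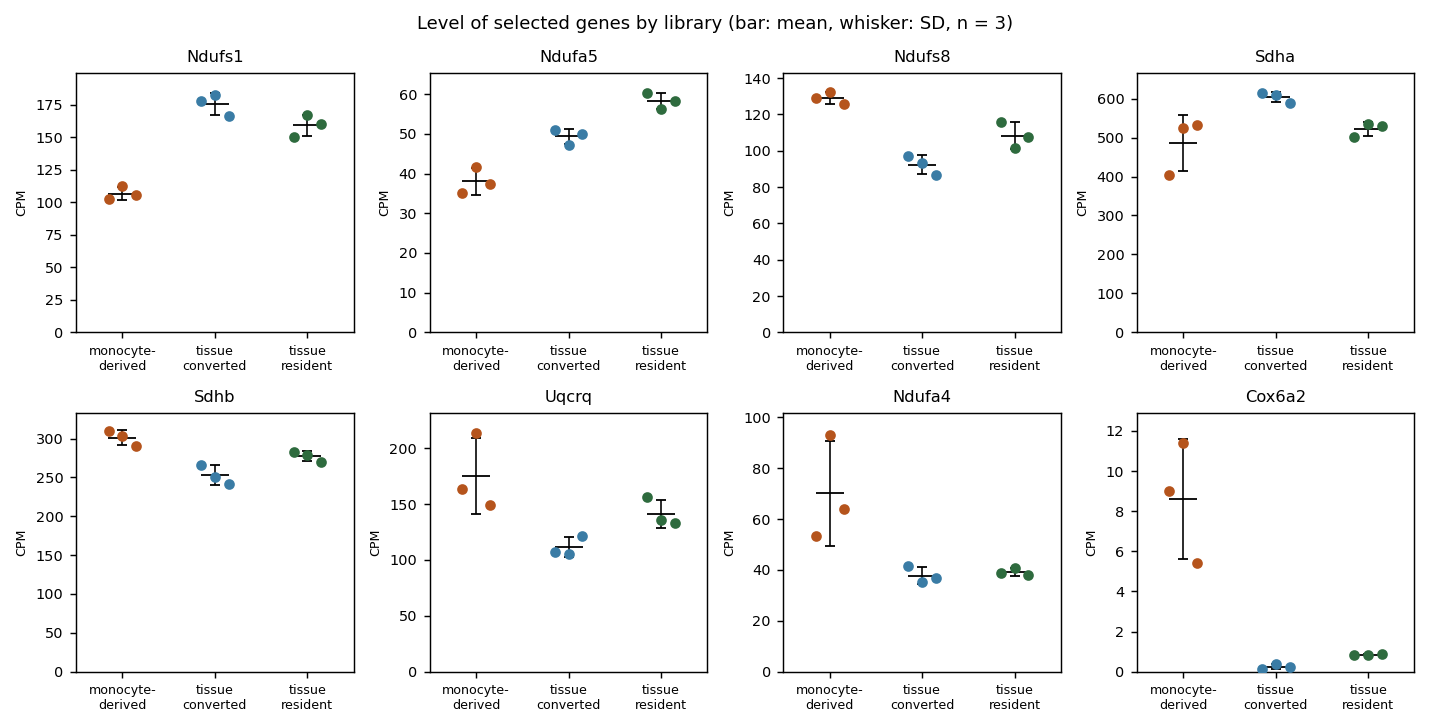
Level in CPM (y axis, from 0) of 8 genes in each library (points), with the mean as a bar and the SD as whiskers, by group (x axis). Ndufs1 and Ndufa5 stand higher in the converted and resident groups, Sdha is highest and Sdhb and Uqcrq lowest in converted libraries, and Ndufa4 and Cox6a2 are highest in monocyte-derived ones.

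In complex V, the 5 subunits of the F1 sector passed in neither comparison (0 at an unadjusted p under 0.05, beside 7462 and 7452 of 13223 genes). Of 11 stalk and membrane subunits 3 rose in both and none fell (27.3%, near the 25.8% and 25.7% of all genes called higher). The difference between the F1 sector and the stalk and membrane subunits was not tested. The 3 were Atp5o, which links F1 to the peripheral stalk, Atp5j, a part of that stalk, and Atp5g2, 1 of 3 genes for the c-ring. Atp5o was at 156.4, 212.5 and 204.7 CPM in monocyte-derived, 290.8, 244.0 and 266.7 in the converted, and 289.2, 273.5 and 273.3 in resident libraries. All converted and resident libraries lay above the monocyte-derived ones. The rises were 1.40-fold (log2 0.48, SE 0.12, adjusted p = 0.00642) and 1.46-fold (log2 0.54, SE 0.12, adjusted p = 0.00339). Atp5g2 encodes the same mature c subunit as Atp5g1 and Atp5g3, and rose by log2 0.34 (adjusted p = 0.0109) and 0.27 (adjusted p = 0.0292). Atp5g3, the most read of the 3, and Atp5g1 did not pass. The converted call of Atp5j was lost without any library other than monocyte-derived library 2 (adjusted p of up to 0.128), and the resident call of Atp5g2 without monocyte-derived library 1 or 3 or resident library 2 or 3 (up to 0.0937).

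Atp5a1, the alpha subunit, was at 1309 to 1401 CPM in monocyte-derived, 1460 to 1548 in the converted and 1366 to 1407 in the resident libraries (log2 0.15, adjusted p = 0.116, and 0.03, adjusted p = 0.722). Atp5b, the catalytic beta subunit, was at 2112 to 2294, 2163 to 2250 and 1946 to 2033 CPM (log2 0.01, adjusted p = 0.914, and -0.15, adjusted p = 0.133). Resident libraries were the lowest for Atp5b, opposite to the majority of members. Atp5e, the small epsilon subunit of the F1 sector, spread widely among monocyte-derived libraries, at 68.8, 166.5 and 94.1 CPM. The converted (90.7 to 112.5) and resident (111.8 to 128.3) values lay within that range. Atp5s, taken in by its name and linked to mitochondrial assembly, was at 4.64, 5.38 and 4.73 CPM in monocyte-derived, 7.97, 7.35 and 5.91 in the converted, and 6.99, 5.93 and 6.22 in resident libraries. The monocyte-derived libraries were below all others. It rose in converted libraries (1.44-fold, log2 0.53, SE 0.17, adjusted p = 0.0287), a call lost on leaving out monocyte-derived library 1 or 3, or 1 or 2 of the converted ones (adjusted p of up to 0.102).

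Levels of different genes are comparable only per length, here as CPM per kilobase of annotated exon. Averaged over all libraries the highest on that scale were Atp5b, Cox6a1 and Atp5a1, and the order differed between groups. In monocyte-derived libraries the leading means were Atp5b at 516.7, Cox8a at 431.5, Atp5a1 at 430.5 and Cox6a1 at 406.6. In resident libraries they were Cox6a1 at 558.8, Cox8a at 481.3, Atp5b at 466.2, Cox6b1 at 465.4 and Atp5a1 at 441.0. The lowest over all libraries were Ndufa4l2, Cox6b2 and Ndufb2, while Cox6a2 lay below Ndufb2 in converted (0.364) and resident libraries (1.25). Ndufb2, a complex I subunit, stood at 2.49 CPM per kilobase in monocyte-derived and 2.46 in resident libraries, over 5628 bases of annotated exon, and long annotated isoforms lower such a value.

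Summed over the genes of a complex, levels differed little between groups. Complex I summed to 2996 ± 302 CPM (SD, n = 3) in monocyte-derived, 3342 ± 152 in the converted and 3551 ± 62 in the resident libraries. Complex II summed to 1276 ± 140, 1477 ± 52 and 1407 ± 22, with converted libraries highest. Complex III summed to 1612 ± 128, 1754 ± 53 and 1807 ± 46, and complex IV to 1966 ± 371, 2157 ± 146 and 2455 ± 63. Complex V summed to 6165 ± 442, 6537 ± 211 and 6333 ± 51. Most of the complex V sum came from Atp5b and Atp5a1, which passed in neither comparison with monocyte-derived libraries. In each sum the monocyte-derived libraries spread most. All 84 members together reached 1.09 times the monocyte-derived level in the converted and 1.11 times in resident libraries.

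**Figure D3:**
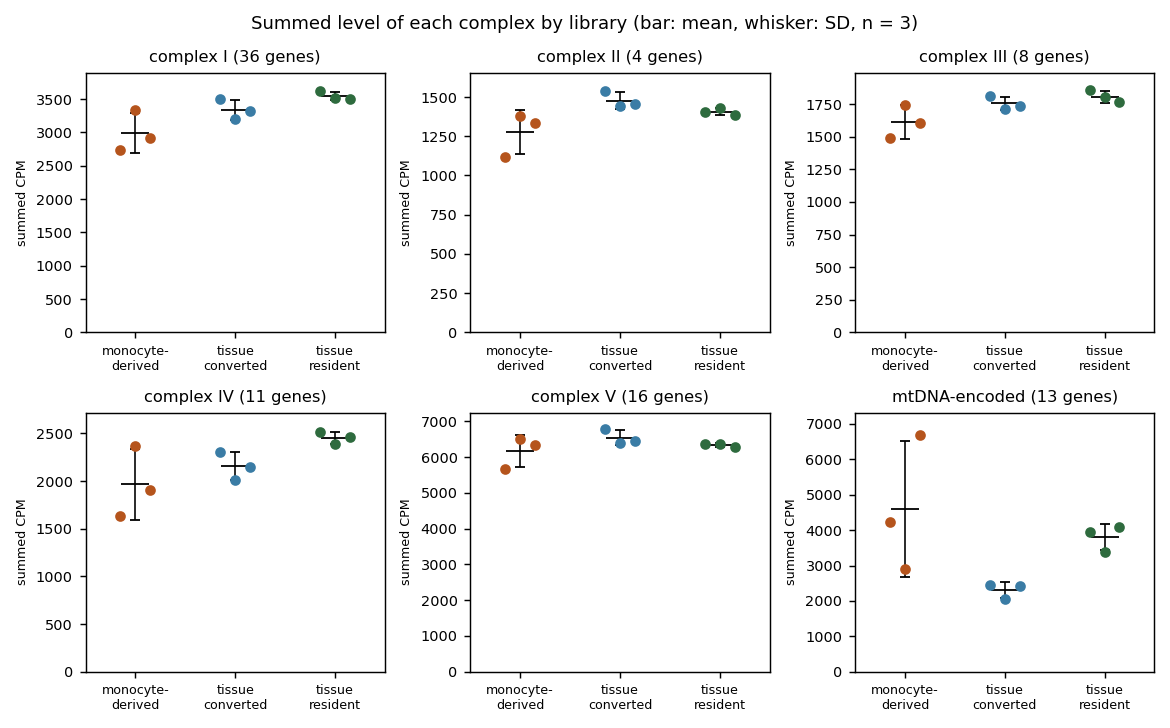
Summed CPM (y axis, from 0) of the genes of each complex and of the mtDNA-encoded subunits in each library (points), with the mean as a bar and the SD as whiskers, by group (x axis). Nuclear sums are lowest in monocyte-derived library 1, while the mtDNA-encoded sum is lowest in the converted group at 2051 to 2452.

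The mtDNA-encoded subunits, partners of the members in complexes I, III, IV and V, moved the other way in converted libraries. Resident libraries lay within the monocyte-derived range of their sum. Their sum was 4224, 2890 and 6677 CPM in monocyte-derived, 2452, 2051 and 2435 in the converted, and 3949, 3385 and 4081 in the resident libraries. Converted libraries lay below all others. In converted against monocyte-derived libraries 0 rose and 8 of 12 tested fell (66.7%, beside 24.9% of all genes called lower), with a median log2 change of -0.97. They were mt-Nd1, mt-Nd2, mt-Nd4, mt-Nd5, mt-Nd6, mt-Cytb, mt-Co1 and mt-Atp8. mt-Nd4, a proton-pumping subunit of complex I, fell most among them, from 175.1 to 423.3 CPM to 95.9 to 131.5 (log2 -1.41, SE 0.27, adjusted p = 0.00177). mt-Cytb, the mtDNA-encoded part of complex III, fell from 737.1 to 1676 CPM to 533.4 to 639.7 (log2 -1.01, adjusted p = 0.0067). None passed in resident against monocyte-derived libraries, with 1 of 12 at an unadjusted p under 0.05, beside 7452 of 13223 genes.

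Between converted and resident libraries all 12 mtDNA-encoded subunits had a negative log2 change (median -0.73), and none passed. Of the 12, 10 had an unadjusted p under 0.05, beside 2749 of 13223 genes. The ratio of the members' sum to the mtDNA-encoded sum was 3.03, 5.36 and 2.13 in monocyte-derived, 6.57, 7.28 and 6.28 in the converted, and 4.04, 4.64 and 3.82 in resident libraries. The converted ratios were above all others. Monocyte-derived library 2 had the highest nuclear sum and the lowest mtDNA-encoded sum of its group.

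Converted and resident libraries differed little in single members, yet the small differences leaned to one side. Of the 83 tested, 61 had a negative log2 change in converted against resident libraries, with a median of -0.11 beside 0.01 over all genes. All 11 complex IV genes were on the negative side, as were 25 of 29 accessory subunits of complex I. The complex II median was 0.03 and that of the F1 sector 0.08. Ndufa6 came nearest to a call besides Cox6a2, at 44.3 to 54.2 CPM in the converted and 62.8 to 64.6 in resident libraries (log2 -0.34, adjusted p = 0.0796). The median of -0.11 lies beside one of -0.16 for the 220 other protein-coding genes with at most 1000 bases of exon. Fitted with these 2 groups alone, 17 members were called lower in converted libraries, with 9.17% of all genes called lower.

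Most members have short transcripts. The members' median exon length was 1578 bases, against 4486 over the protein-coding genes tested. Of the 21 tested members with at most 1000 bases, 13 were called higher in resident libraries (61.9%), beside 25.9% of the 220 other genes of that length. Of the 31 members above 2000 bases, 6 were called higher (19.4%), beside 26.7% of 10210 other genes. In converted libraries the shares were 23.8% beside 20.9% for the short and 29.0% beside 28.2% for the long genes. For lengths between these, the share was 16.1% of 31 members beside 23.7% of others in converted, and 35.5% beside 25.3% in resident libraries. The median log2 change in resident libraries was 0.37 for short members and 0.10 for the 220 others. The part of transcript length in the members' changes was not tested further.

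Libraries of the same group differed from each other in OXPHOS levels as a block. Among the 80 members with at least 1000 reads, monocyte-derived library 1 was the lowest of its group for 60 and library 2 the highest for 69. Converted library 1 was highest for 65 and library 2 lowest for 61. The median deviation from the group mean, on the log2 scale, was -0.16 in monocyte-derived library 1 and 0.18 in library 2, beside -0.13 and 0.13 for the 220 other short genes and 0.00 for all genes. The mtDNA-encoded subunits deviated by 0.01 and -0.62 in these libraries. The coefficient of variation within a group had a median of 14.7% in monocyte-derived, 6.25% in the converted and 3.53% in resident libraries for these members, beside 13.6%, 8.21% and 5.95% for genes of any kind with as many reads.

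**Figure D4:**
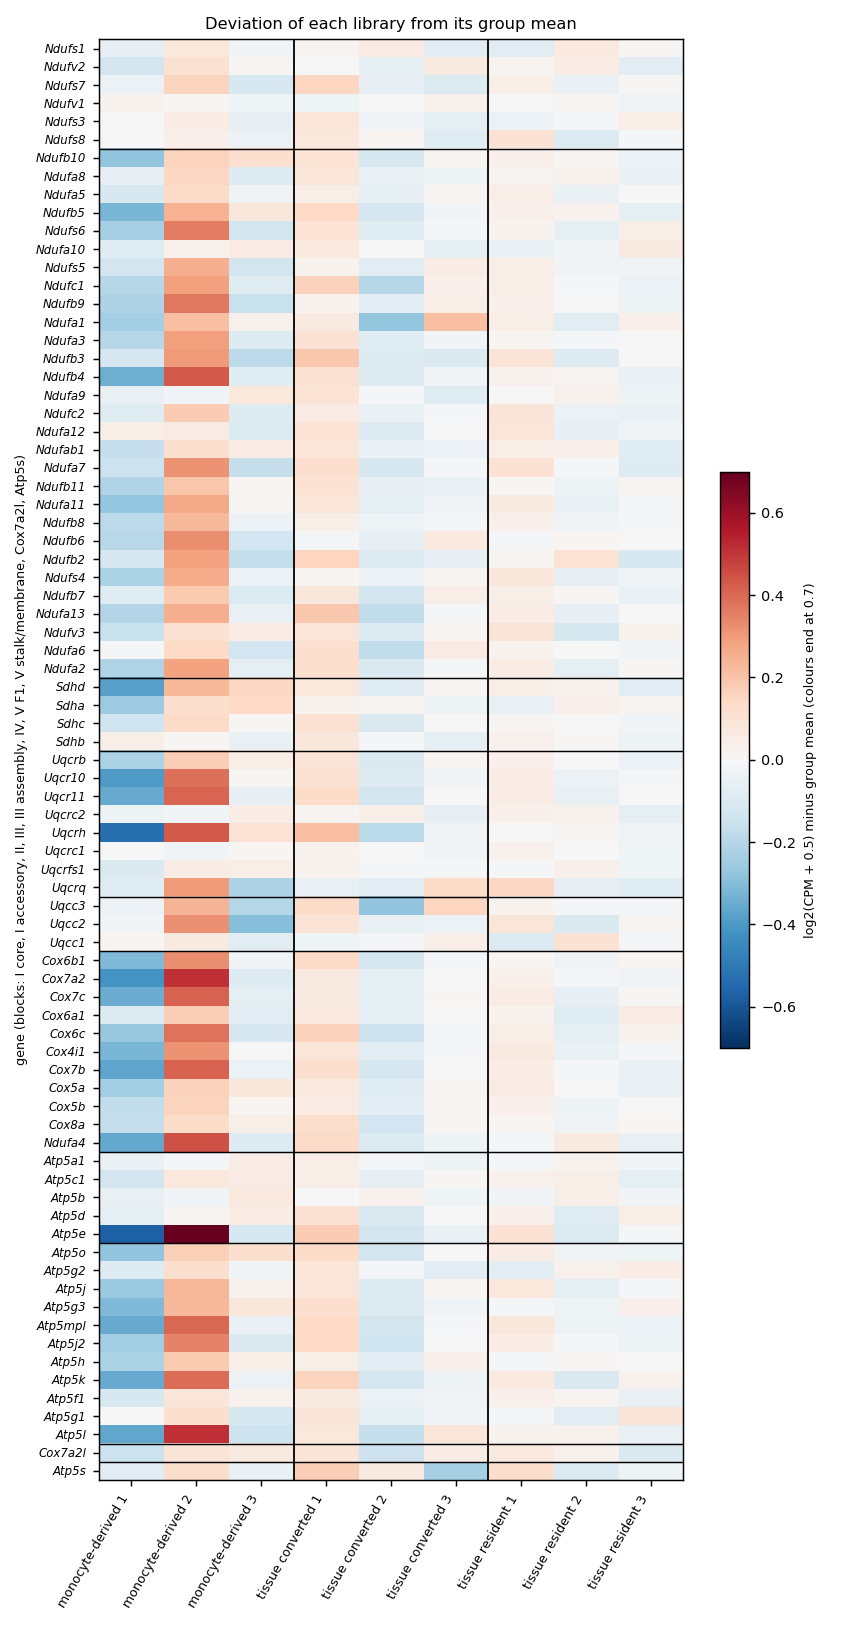
Difference of log2(CPM + 0.5) from the group mean (colour, blue below and red above) for 79 of the 80 members with at least 1000 reads (rows, in blocks by complex) in the 9 libraries (columns). Monocyte-derived library 1 is mostly blue and library 2 mostly red, and the resident libraries are the palest.

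Members that vary together can be described by the correlation of their levels, which share library, depth and composition. Over the 9 libraries the median Pearson correlation between 2 of the 80 members was 0.62, from 3160 pairs. After the group means were removed it was 0.69. Within complex IV it was then 0.93 over 55 pairs, within complex I 0.70, within complex V 0.71, within complex III 0.50 and within complex II 0.42. Complex IV genes thus rose and fell together from library to library more closely than those of complex II.

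Genes around the chain were read from further lists, beside 25.8% and 24.9% of all genes called higher and lower in converted and 25.7% and 24.9% in resident libraries. Of 18 tested genes of the TCA cycle and pyruvate dehydrogenase, which supply the electrons, 10 rose and 1 fell in the converted and 9 rose and 1 fell in the resident libraries (55.6% higher in converted). Idh2, the mitochondrial isocitrate dehydrogenase that makes NADPH, rose from 183.9 ± 35.97 CPM (SD, n = 3) to 370.0 ± 13.2 in converted libraries (log2 1.01, adjusted p = 0.000128) and to 334.4 ± 10.7 in resident ones (log2 0.86, adjusted p = 0.000348). Suclg2, a succinyl-CoA ligase subunit, rose from 36.9 to 72.3 CPM in both groups. Idh3a rose by log2 0.58 in converted (adjusted p = 0.000414) and by 0.33 in resident libraries (adjusted p = 0.0122). Mdh2, which oxidises malate, fell from 763.0 ± 138.6 CPM to 527.2 ± 5.3 and 515.1 ± 18.8 (adjusted p = 0.00339 and 0.00244).

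Of 38 tested assembly factors, 7 rose and 5 fell in the converted, and 7 rose and 2 fell in the resident libraries. These are 18.4% higher in both, and 13.2% and 5.26% lower, each below the share of all genes. Bcs1l, which inserts the Rieske protein into complex III, rose from 9.96 ± 1.79 CPM (SD, n = 3) to 25.7 ± 2.4 and 20.4 ± 2.6 (log2 1.37, adjusted p = 6.5e-05, and 1.04, adjusted p = 0.000398). Tmem70, needed for complex V, rose from 50.8 to 103.0 and 90.5 CPM (log2 1.02 and 0.83), and Foxred1, for complex I, from 40.4 to 66.6 and 63.0 CPM (log2 0.72 and 0.64). Sdhaf1, which matures Sdhb, fell from 4.29 to 2.77 CPM in converted libraries (log2 -0.63, adjusted p = 0.0475), with Ndufaf8 and Ndufaf3. Sco1 and Coa5, of complex IV, fell in both. Ndufaf7 was higher in converted than in resident libraries (log2 0.45, adjusted p = 0.0324).

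In coenzyme Q synthesis 6 of 13 rose and 2 fell in the converted, and 4 rose and 2 fell in the resident libraries (46.2% and 30.8% higher). Coq8a rose from 2.25 ± 1.33 to 6.55 ± 0.19 and 8.86 ± 1.53 CPM (SD, n = 3), Coq9 rose from 44.2 to 67.0 and 67.6, and Coq10b fell from 38.9 to 22.0 and 21.1. Among 11 carriers and exchangers, Slc25a5, an ADP/ATP carrier, rose from 701.2 to 921.5 and 898.5 CPM (log2 0.39 and 0.36), Etfdh rose in both, and Vdac2, a pore of the outer membrane, fell in both (log2 -0.26 and -0.32). Vdac1 fell in resident libraries. The mitochondrial ribosomal proteins were split, with 9 of 77 higher and 9 lower in the converted, and 11 higher and 9 lower in the resident libraries (11.7% and 14.3% higher), below the share of all genes. Mrpl28 rose most (log2 0.69 and 0.54) and Mrps18b fell most (log2 -0.70 and -0.58).

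Among 17 tested regulators of mitochondrial genes, 3 rose and 1 fell in the converted and 4 rose and 5 fell in the resident libraries (17.6% and 23.5% higher). Ppargc1b, a coactivator of respiratory genes, was at 26.8, 31.9 and 36.7 CPM in monocyte-derived, 45.5, 43.1 and 47.0 in the converted, and 70.2, 63.6 and 57.4 in resident libraries. The 3 groups did not overlap. It rose in both (log2 0.51, SE 0.12, adjusted p = 0.00638, and 1.004, SE 0.12, adjusted p = 0.000105) and was lower in converted than in resident libraries (log2 -0.50, adjusted p = 0.0433). Its relative Ppargc1a was at most 0.231 CPM and was not tested. Esrra, a nuclear receptor that works with them, rose in resident libraries (log2 0.58, adjusted p = 0.00529), and its converted change did not pass (log2 0.35, adjusted p = 0.0533).

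Nrf1, a factor of many respiratory promoters, was lower in resident libraries, at 38.8 to 41.8 CPM against 48.0 to 51.8 (log2 -0.30, adjusted p = 0.011), and did not pass in converted ones (log2 -0.08, adjusted p = 0.438). Gabpa, an ETS factor, fell in resident libraries and was higher in converted than in resident ones, at 86.0 ± 5.9 and 63.5 ± 3.3 CPM (log2 0.44, adjusted p = 0.017). Tfam, which packages mtDNA, passed in no comparison (adjusted p = 0.912, 0.364 and 0.508). Polg, the mtDNA polymerase, rose in both (log2 0.68 and 0.52), as did Slirp, which stabilises mtDNA-encoded mRNAs. Pprc1 fell in both (log2 -0.36 and -0.53), and Tfb1m and Tefm fell in resident libraries.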

How the data were processed

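The deposited files hold raw read counts per gene for each of 9 libraries. TopHat2 2.1.0, HTSeq and build GRCm38 are named per the submitters' processing notes, and the labels' protocols name the TotalScript RNA-Seq kit for low input. The sources used here give neither the annotation nor the strand setting, HTSeq version or gates, so reads of overlapping genes, antisense partners and processed pseudogenes (11 with matching symbols, left out) cannot be told apart with certainty. Symbols came from GENCODE M21 (GRCm38) for 47224 of 47729 identifiers, and reads in no gene (4.02% to 5.66%) or ambiguous (4.47% to 4.68%) stayed out. Counts were filtered with filterByExpr (minimum count 10, minimum total 15), scaled by TMM and fitted over all 9 libraries with edgeR 4.0.16 (robust quasi-likelihood, 6 residual degrees of freedom, R 4.3.3), and p-values were adjusted by Benjamini-Hochberg over 13223 genes. Levels are CPM on TMM-scaled library sizes. Members and lists were chosen with earlier results of these data known. Values per library are given for the 6 largest changes per direction and a set of key subunits and relatives, and other mitochondrial lists by up to 3 called genes per direction; Ndufa6, the subunit ratios and the genes said to be looked up later were chosen after their values were seen. Some genes that the naming rule covers are not reported here by name, though they stay in every count. Libraries of a group differed by more than counting noise, so none was counted as a duplicate. On simulated counts, 53.6% of 2-fold and 24% of 1.5-fold changes were recovered for converted against monocyte-derived among 12982 genes, with 3 false calls. The simulation changed few genes, drawn at all levels, while 50.7% of all genes were called in the data. Its recovery therefore does not give the power for the members. Alternatives were DESeq2 1.42.0, limma-voom (limma 3.58.1), other scalings and filters, coding genes alone, a replicate block, 2-group fits, a fold threshold and each library left out.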

Additional observations from a re-analysis of the deposited data

How the results depend on the processing

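All members called in the 3 comparisons (25, 34 and 1) kept their direction under each of the 18 alternatives, and 13, 21 and 0 kept their call under all of them. The 13 and 21 each include Ndufa4l2, whose call was fixed by the read minimum. In converted against monocyte-derived libraries, the number called higher (19) was 12 with a replicate block and 10 with only the 2 groups. Of all genes, 24.3% and 22.7% were called higher in these fits. At a change of at least 1.5-fold 1 member was higher, while 4757 of 13223 genes were called at that size in either direction. With a library left out the number was 10 to 38, beside 22% to 25.6% of all genes. Resident against monocyte-derived libraries (30 higher) gave 1 at 1.5-fold, where 4664 of 13223 genes were called in either direction. With a library left out they gave 20 to 51, beside 21.5% to 25.7% of all genes. Lower calls ranged over 6 to 8 and 3 to 5 with a library left out, beside 21% to 24.8% and 20.2% to 25% of all genes. The 1 call between converted and resident libraries became 2 with DESeq2, 17 with only these 2 groups, and 0 to 2 with a library left out. It became 0 with limma-voom, DESeq2 size factors, coding genes alone or the replicate block. Members higher there numbered 0 to 1. Of all genes, 6.33% were called lower there with DESeq2 and 9.17% with only these 2 groups. With a library left out that share was 1.63% to 6.46%. Over the 3 groups (30) the range was 18 to 59, beside 6366 of 13572 to 7607 of 13577 genes. The largest numbers called higher against monocyte-derived libraries, and over the 3 groups, came without monocyte-derived library 2. Same-numbered libraries deviated with correlations of -0.094 to 0.065, and differently numbered ones with -0.089 to 0.106. Such correlations cannot exclude a shared mouse or day, which the labels do not state. The replicate block also gave 24 higher in resident libraries, beside 24.7% of all genes. Summed levels moved by less than the spread between libraries under each scaling. Depth limits the rare relatives most, where a call rests on under 100 reads. In the simulation, 1.5-fold changes were recovered in 28% of cases between converted and resident libraries. That share covers genes of all levels and does not give the power for the members. Losses named above for single genes are mostly those with a library left out, and some calls were also lost under another scaling, filter or fit. The causes of these shifts were not tested.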

Other observations

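Other genes of oxygen and fuel use were looked up after the members' values were seen. Hif1a, the oxygen-sensitive transcription factor subunit, was at 277.2 to 363.9 CPM in monocyte-derived, 87.6 to 107.8 in the converted and 88.1 to 96.0 in resident libraries (edgeR, log2 -1.76, adjusted p = 1.9e-06, and -1.87, adjusted p = 1.5e-06). Slc2a1, the glucose transporter GLUT1, was at 159.6 to 216.2, 42.3 to 47.7 and 41.5 to 55.5 CPM (log2 -2.10 and -2.04). Egln3, a prolyl hydroxylase known as a hypoxia target, was at 20.1 to 37.0, 3.34 to 7.31 and 9.59 to 16.7, and was lower in converted than in resident libraries (log2 -1.39, adjusted p = 0.0445). Higd1a, a complex IV-associated protein, was at 53.8 to 72.1, 36.5 to 42.5 and 40.1 to 42.6 CPM (log2 -0.64 and -0.59). All 4 were highest in monocyte-derived libraries.

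AA467197, the mouse counterpart of a gene described as a further relative of Ndufa4, went the other way in resident libraries, at 192.6 to 337.3, 229.8 to 362.7 and 374.1 to 525.0 CPM (log2 0.86, adjusted p = 0.0156). Ucp1, the uncoupling protein known from brown fat, was at most 0.194 CPM in monocyte-derived libraries, 77.1 to 97.8 in the converted and 107.6 to 148.6 in resident ones. Usmg5, a small membrane protein of complex V outside the symbol rule, was at 51.5, 117.2 and 66.9 CPM in monocyte-derived libraries and did not pass (adjusted p = 0.788 and 0.751).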
